A study of Mus musculus with 15 samples.

Results

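G1E cells carrying the R216W form of GATA1 were set directly against G1E cells carrying the R216Q form, so that the groups compared differ in the amino acid that replaces 1 arginine of the amino-terminal zinc finger (R216). G1E is a mouse proerythroblast line without GATA1, the zinc finger transcription factor that red cell precursors need in order to mature. Each form was supplied as GATA1-ER, a fusion to a part of the estrogen receptor through which estradiol switches the protein on. The members were the 3 arrays titled R216W and the 3 arrays titled R216Q, 6 of the 15 Affymetrix arrays of the series. The rest were a wild type GATA1-ER line and the D218G and D218Y lines, with 3 arrays each. All 5 lines shared the GATA1-null background and an exposure to 100 nM estradiol that lasted 24 hours, and the labels call the arrays of a line biological replicates. Untreated cells were not used here. The promoter that drives the fusion, and the number of clones or pools behind a line, were not stated by the labels. Mutation and line therefore cannot be told apart. The p-values rest on the spread among arrays within a line, pooled over the 5 lines, and not on the spread among lines made independently with the same mutation.

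GATA1 binds DNA through a pair of zinc fingers. The carboxy-terminal finger recognises GATA sites on its own, while the amino-terminal finger, where R216 lies, adds contacts at palindromic GATA sites and holds the cofactor FOG1 (gene Zfpm1). In people, R216Q is known from an X-linked thrombocytopenia with thalassaemia-like red cells, and R216W from congenital erythropoietic porphyria, a disorder of the haem enzyme uroporphyrinogen III synthase (gene Uros). When GATA1 is switched on in erythroid precursors, globin, haem and membrane genes normally come up while Gata2, Kit and other genes of immature cells go down.

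R216W and R216Q cells differed in many genes by small amounts and in few genes by large ones. Of 19933 genes tested with limma, 3369 passed an adjusted p under 0.05 (16.9% of those tested), 1644 of them higher in R216W (8.25%) and 1725 lower (8.65%). These shares are the background for the counts that follow, and only genes that passed are called higher or lower. The shares are larger among brighter genes: a separate fit of only the genes above the median level gave 3863, 1889 higher and 1974 lower, from fewer genes tested. Members of lists such as S phase, mitosis and ribosome biogenesis all lay above the median level. A list share above 16.9% is therefore not by itself an excess over genes of like level. Of the 3369 genes that passed in the main fit, 3054 (90.7%) differed by less than 1.5-fold. A difference of 2-fold or more was measured for 76 genes, 45 higher and 31 lower in R216W. The arrays of the lines did not overlap for 3355 of the genes that passed and for 6142 of all genes tested (30.8%), so that a lack of overlap is common here. Differences are given on the log2 scale as R216W minus R216Q with limma's standard error (SE) and 3 arrays per line, and the median over all genes was -0.01. In the 6 arrays the log2 values ran from 2.89 to 13.55, the array medians lay between 6.32 and 6.38, and across genes the median standard deviation (SD) among a line's arrays was 0.055 for R216Q and 0.05 for R216W.

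**Figure D1:**
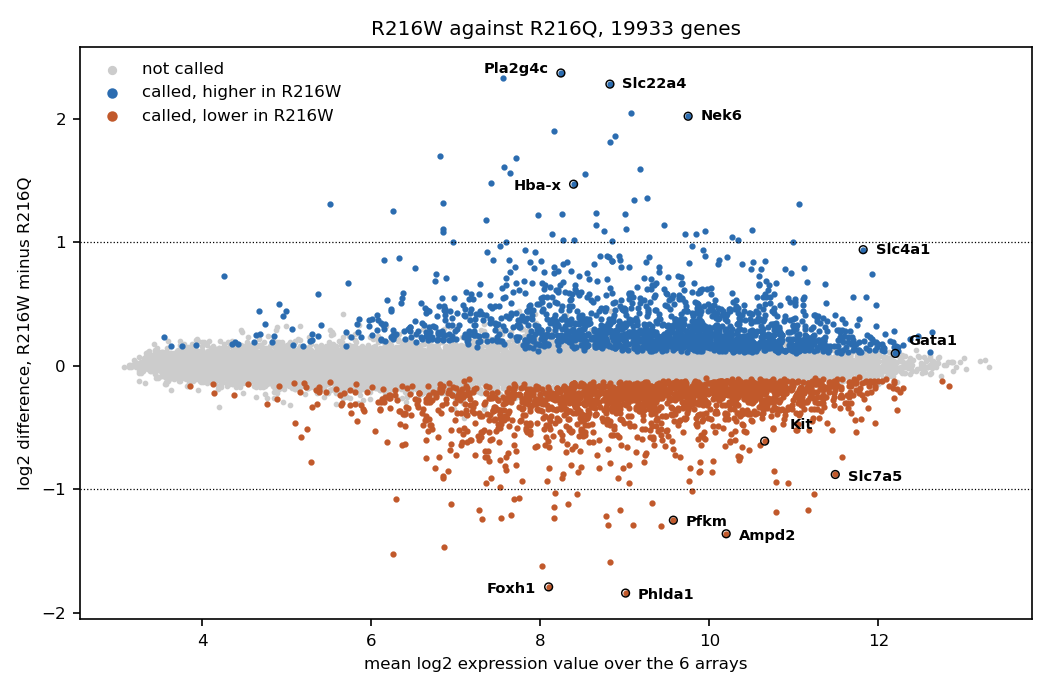
Each point is 1 of 19933 genes, with its mean log2 expression value over the 6 arrays on the horizontal axis and its log2 difference, R216W minus R216Q, on the vertical axis; dotted lines mark 2-fold. Blue and orange points are the 1644 genes higher and the 1725 genes lower in R216W at an adjusted p under 0.05, most of them well inside the dotted lines, and circled points are named.

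The signal of Gata1, the gene that carries the mutation, was at nearly the same level in both lines. Gata1 read 12.16, 12.15 and 12.14 in the R216Q arrays, 12.24, 12.25 and 12.26 in the R216W arrays and 12.35, 12.36 and 12.36 in the wild type arrays. The R216W values lay between the other groups with no overlap, and the difference of 0.10 ± 0.03 had an adjusted p of 0.0323. By exact permutation of the array labels (two-sided) p was 0.1, the lowest that 3 against 3 arrays can reach. The call was lost when any of the 6 arrays was left out (adjusted p from 0.0611 to 0.0955) and when the 6 arrays were fitted alone (adjusted p = 0.0912). The probe set does not tell the mutant forms apart, so it does not check which form a line carried. Whether it also reads transcript of the disrupted Gata1 gene of G1E cells was not settled. Zfpm1, which encodes the FOG1 cofactor that the amino-terminal finger holds, was at -0.06 ± 0.03 (adjusted p = 0.295), and Klf1, the erythroid Krüppel-like factor, was at 0.02 ± 0.04 (adjusted p = 0.857).

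The cells of both lines carried the markers of red cell precursors. Of 24 measured red cell membrane genes 23 lay above the median level of all genes, 6.48. The linear sum over that list was 41894 to 42735 in the R216Q arrays and 46876 to 47486 in the R216W arrays. Such a sum is weighted toward the members with the highest signals. Markers of most other cells were low, with 0 of 17 granulocyte and monocyte genes, 0 of 14 lymphoid genes, 2 of 13 mast cell genes and 4 of 14 stroma and epithelium genes above that median. Megakaryocyte genes, described below, were less low, with 7 of 16 above it. No member of the granulocyte and monocyte, lymphoid or stroma lists passed in either direction, while with array weights 2 of the granulocyte and monocyte list were lower and 1 of the stroma list was higher. Their summed levels ran from 808 to 848 in R216Q and from 762 to 809 in R216W for granulocytes and monocytes, from 605 to 645 and from 596 to 626 for lymphoid cells, and from 1040 to 1105 and from 1030 to 1087 for stroma. In RNA from whole cultures, fewer cells of a type and less RNA per cell cannot be told apart.

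The largest differences were a set of genes that were several-fold higher in R216W, among them genes of membrane transport. Pla2g4c, which encodes a calcium-independent phospholipase A of the cytosolic group, read 7.04, 7.09 and 7.06 in R216Q and 9.38, 9.43 and 9.49 in R216W. Every R216W array lay above every R216Q array by more than 2 log2 units, and the wild type arrays, at 7.39, 7.60 and 7.45, lay between them. The difference was 2.37 ± 0.06 (5.16-fold, adjusted p = 1.36e-11). Rgs18, a regulator of G-protein signalling of megakaryocytes and platelets, read 6.48, 6.56 and 6.14 in R216Q and 8.77, 8.65 and 8.76 in R216W. Its difference was 2.33 ± 0.11 (adjusted p = 3.07e-09), with R216Q replicate 3 the lowest array. The carnitine and ergothioneine transporter gene Slc22a4 read 7.64, 7.71 and 7.70 in R216Q, 9.99, 9.98 and 9.93 in R216W and 10.06, 9.88 and 9.93 in wild type. The R216W arrays thus overlapped with the wild type arrays, and the R216Q arrays stood below both (difference 2.28 ± 0.06).

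Other transport genes followed, with genes of other roles among them. Slc14a1, the urea transporter that carries the Kidd blood group, read 7.82, 8.02 and 7.91 in R216Q, 9.67, 9.78 and 9.73 in R216W and 9.31, 9.31 and 9.29 in wild type, so that R216W lay above both other lines (difference 1.81 ± 0.07, adjusted p = 2.77e-10). The aquaglyceroporin gene Aqp3 read 7.95, 7.94 and 7.95 in R216Q and 9.77, 9.80 and 9.85 in R216W (1.86 ± 0.05). Aqp8, another water channel gene, differed by 1.59 ± 0.06, and the sodium phosphate cotransporter gene Slc34a3 by 1.56 ± 0.06. Rragd, a Rag GTPase that brings the growth regulator mTORC1 to lysosomes, differed by 2.05 ± 0.08, and Nek6, a mitotic kinase gene, by 2.02 ± 0.07. The R216Q arrays of Nek6 all read 8.74, against 10.73, 10.76 and 10.77 in R216W and 9.84, 9.73 and 9.79 in wild type. Cpne7 (1.90 ± 0.07), Lrrc39 (1.70 ± 0.10), Nceh1, an esterase of cholesterol ester and ether lipid breakdown (1.68 ± 0.08), the non-coding RNA Airn (1.61 ± 0.12), Micall2 (1.55 ± 0.07) and Hba-x (1.47 ± 0.07) complete the 15 largest differences in this direction.

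Genes lower in R216W by the largest amounts were led by Phlda1, a pleckstrin homology domain gene of the growth factor response. It read 9.98, 9.92 and 9.90 in R216Q and 8.0, 8.07 and 8.21 in R216W, with the wild type arrays between them at 8.86, 8.96 and 8.91, and differed by -1.84 ± 0.05 (3.57-fold higher in R216Q, adjusted p = 1.36e-11). Foxh1, a forkhead factor that works with Smad proteins, read 9.02, 9.10 and 8.86 in R216Q and 7.15, 7.24 and 7.23 in R216W (-1.79 ± 0.07). Grk5, a kinase of G-protein-coupled receptors, read 8.79, 8.84 and 8.85 and 7.14, 7.25 and 7.23 (-1.62 ± 0.10). In all 3 genes the wild type arrays lay between those of the mutant lines without overlap. Over all 19933 genes the wild type arrays lay so for 595 (2.98%), and 248 (1.24% of all genes) also passed in all 3 comparisons among these lines. Ampd2, an AMP deaminase of purine metabolism, read 10.94, 10.78 and 10.93 in R216Q and 9.49, 9.54 and 9.54 in R216W (-1.36 ± 0.05).

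Slc38a5, a glutamine transporter gene, was lower in R216W with another order of the lines. It read 10.18, 10.14 and 10.06 in wild type, 9.73, 9.73 and 9.77 in R216Q and 8.39, 8.54 and 8.42 in R216W, so that both mutant lines lay below wild type and R216W lowest (-1.29 ± 0.05). The protein disulfide isomerase gene Pdia2 (-1.29 ± 0.04) and Pkhd1l1 (-1.24 ± 0.06) had the same order of lines. Erv3, an endogenous retroviral gene, read 6.97, 7.18 and 6.91 in R216Q against 5.56, 5.33 and 5.62 in R216W and 5.48, 5.25 and 5.37 in wild type, with R216W and wild type overlapping. The rest of the 15 were Sapcd1 (-1.59 ± 0.05), Lonrf2 (-1.47 ± 0.06), the acyltransferase gene Mboat2 (-1.30 ± 0.05), the muscle phosphofructokinase gene Pfkm (-1.25 ± 0.04), the chloride channel gene Ano1 (-1.23 ± 0.06), the transcobalamin gene Tcn2 (-1.23 ± 0.07) and the presenilin gene Psen2 (-1.22 ± 0.06). All 30 kept their call under every alternative tried.

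**Figure D2:**
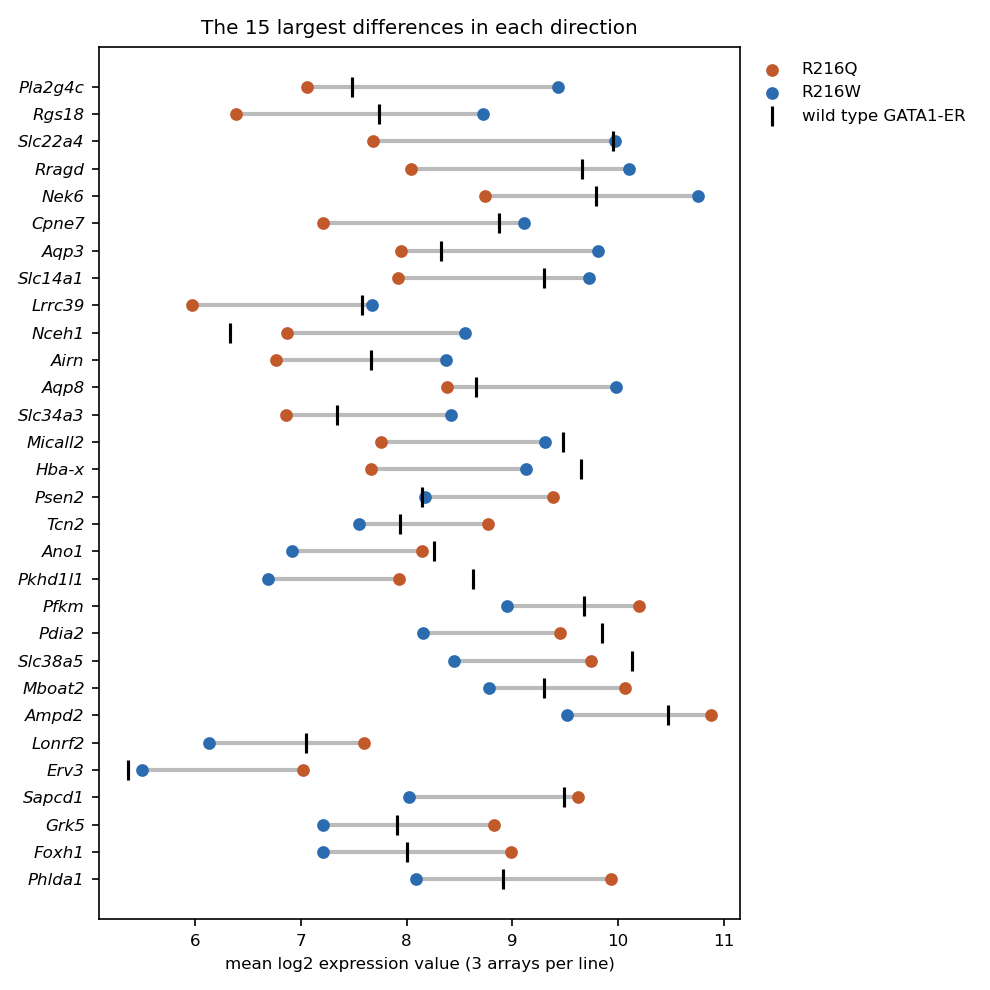
For each of the 15 largest differences in each direction, points give the mean log2 expression value of 3 R216Q arrays (orange) and 3 R216W arrays (blue), and the black tick gives the mean of 3 wild type GATA1-ER arrays. The tick lies between the points for genes such as Pla2g4c (wild type mean 7.48), at the R216W point for Slc22a4 and Psen2, and outside both for Hba-x, Slc38a5 and Pkhd1l1.

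The start regions of these genes were read for GATA motifs, because R216 lies in the finger that contacts palindromic sites. The RefSeq promoter table (build GRCm38.p6) held windows of 250 bases before to 50 after the start for 15610 of the 19933 genes, 19173 windows in all. A window was counted where it held AGATAA or TGATAA on either strand (single sites), or ATC, then A or T, then GATA on either strand (the palindromic site), which can overlap a single site. A gene with several starts was counted once. Of the 15610 genes 2664 (17.1%) held a single site in at least 1 window, against 193 of 1356 genes higher in R216W (14.2%) and 189 of 1416 genes lower in R216W (13.3%). Among genes that differed by 2-fold or more the counts were 8 of 35 genes higher (22.9%) and 3 of 19 lower (15.8%). The palindromic site was in 0.81% of all windows, 0.49% and 0.39% of those of genes higher and lower in R216W, and 1 of 44 and 0 of 26 windows of the 2-fold sets. These are descriptions of letters, which do not show binding. The single window of the 2-fold sets with the palindromic site is that of Pla2g4c, the gene with the largest difference, and it is shown with the windows of Hba-x and Pfkm, which lead the globin and glycolysis genes below. Each is the 250 bases before an annotated start on the plus strand, 5′ to 3′, with single sites in capitals (TTATCA is TGATAA read on the other strand).
Pla2g4c, chr7:13325417-13325666: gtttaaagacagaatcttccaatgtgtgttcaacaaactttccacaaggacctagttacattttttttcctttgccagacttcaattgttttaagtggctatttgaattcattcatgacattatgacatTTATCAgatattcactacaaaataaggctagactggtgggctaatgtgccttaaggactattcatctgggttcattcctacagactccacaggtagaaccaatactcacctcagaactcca
Hba-x, chr11:32276350-32276599: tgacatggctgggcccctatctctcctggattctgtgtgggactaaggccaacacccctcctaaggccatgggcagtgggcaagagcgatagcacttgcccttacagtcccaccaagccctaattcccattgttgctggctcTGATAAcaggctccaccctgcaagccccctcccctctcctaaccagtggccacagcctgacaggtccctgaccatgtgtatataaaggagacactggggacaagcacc
Pfkm, chr15:98092339-98092588: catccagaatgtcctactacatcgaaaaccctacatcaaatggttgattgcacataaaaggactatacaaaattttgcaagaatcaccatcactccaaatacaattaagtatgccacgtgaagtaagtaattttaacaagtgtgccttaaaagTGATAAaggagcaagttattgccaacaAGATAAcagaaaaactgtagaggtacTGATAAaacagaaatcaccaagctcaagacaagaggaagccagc
The capitals begin 121 bases before the start in Pla2g4c, 108 bases before it in Hba-x, and 97, 70 and 44 bases before it in Pfkm. Pla2g4c and Pfkm have further annotated starts, and which start these cells used was not given. The Pfkm window shown is the one with the most single sites, and those of its other starts held 2, 1 and 0. The other Pla2g4c window held 1 single site and 0 palindromic sites.

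Embryonic globin genes differed between the lines in opposite directions. Hba-x, the embryonic zeta-globin gene of the alpha cluster, read 7.64, 7.63 and 7.72 in R216Q, 9.13, 8.97 and 9.29 in R216W and 9.78, 9.58 and 9.6 in wild type. Both lines lay below wild type, R216Q by far more (2.76-fold between the mutant lines, adjusted p = 2.49e-09). Hbb-bh1, an embryonic gene of the beta cluster, read 11.47, 11.54 and 11.22 in R216Q, 10.61, 10.17 and 10.59 in R216W and 11.34, 11.42 and 11.44 in wild type. Here it was R216W that stood below, by -0.95 ± 0.10 (adjusted p = 8.04e-06), while R216Q overlapped with wild type. Hbb-y, the embryonic epsilon-type gene, was at 0.11 ± 0.11 with overlapping arrays (adjusted p = 0.656), and Hbq1a was at 0.05 ± 0.09. The theta-globin gene Hbq1b was higher in R216W (0.31 ± 0.08, adjusted p = 0.0206), but not without R216Q replicate 3 (adjusted p = 0.0948), R216W replicate 2 (0.0599) or R216W replicate 3 (0.0871). Of 5 globin genes measured, 2 were therefore higher and 1 lower, or 1 higher without any of those arrays, with a list median of 0.11. The adult globin genes were not analysed here.

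Haem synthesis genes were mostly higher in R216W by small amounts, with 7 of 13 higher and 3 lower (median 0.16, against -0.01 over all genes). Slc25a39, a mitochondrial carrier that brings in glutathione, had the largest difference of the list. It read 10.83, 10.77 and 10.86 in R216Q and 11.50, 11.51 and 11.48 in R216W (0.68 ± 0.03, adjusted p = 3.07e-09), and the R216W line was at 0.03 relative to wild type. The porphyrin transporter gene Abcb6 (0.29 ± 0.04), the mitochondrial iron importer gene Slc25a37 (0.28 ± 0.03) and Alad, the enzyme of the step after Alas2 (0.27 ± 0.03), were also higher. Urod (0.19 ± 0.03), Cpox (0.19 ± 0.03) and Fech, the ferrochelatase gene (0.16 ± 0.05), were higher by less. The 3 genes lower in R216W were Ppox, which makes protoporphyrin, Slc25a38, the mitochondrial glycine carrier, and Tmem14c. Ppox read 10.53, 10.53 and 10.53 in R216Q and 10.03, 9.98 and 9.92 in R216W (-0.55 ± 0.04, adjusted p = 1.74e-07), and Slc25a38 differed by -0.44 ± 0.03 and Tmem14c by -0.24 ± 0.04.

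Uros, the gene of the enzyme that is deficient in congenital erythropoietic porphyria, did not separate the lines. It read 9.82, 9.84 and 9.88 in R216Q, 9.86, 9.84 and 9.88 in R216W and 10.71, 10.70 and 10.74 in wild type. Both mutant lines lay below wild type, R216Q by -0.86 ± 0.04 and R216W by -0.86 ± 0.04, and the difference between them was 0.01 ± 0.04 (95% interval -0.07 to 0.08, adjusted p = 0.955). Alas2, the first enzyme of the erythroid haem pathway, was at -0.08 ± 0.06 (95% interval -0.21 to 0.04, adjusted p = 0.484).

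Iron handling genes went both ways, with 5 of 17 higher and 6 lower (median 0.03). Aco1, the iron regulatory protein that is also cytosolic aconitase, read 10.58, 10.56 and 10.62 in R216Q and 11.34, 11.36 and 11.32 in R216W (0.75 ± 0.03, adjusted p = 5.74e-10). Erfe, the hormone erythroferrone, was higher by 0.58 ± 0.04, and Ncoa4, the receptor for ferritin breakdown, by 0.22 ± 0.04. Lower in R216W were Hmox1, the haem oxygenase gene (-0.76 ± 0.09), Tfr2, a transferrin receptor that also binds the erythropoietin receptor (-0.71 ± 0.06), Flvcr1, a haem exporter gene (-0.68 ± 0.07), and the ferrireductase gene Steap3 (-0.33 ± 0.03). Tfr2 read 8.02, 7.92 and 7.99 in R216Q, 7.26, 7.22 and 7.34 in R216W and 7.85, 7.77 and 7.79 in wild type, with no overlap among the lines. The main transferrin receptor gene Tfrc was at 0.01 ± 0.03 (adjusted p = 0.95).

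Among red cell membrane genes, 10 of 24 were higher in R216W and 3 lower (median 0.08). Slc4a1, the band 3 anion exchanger, read 11.33, 11.29 and 11.43 in R216Q, 12.28, 12.31 and 12.27 in R216W and 12.43, 12.45 and 12.36 in wild type. The R216Q arrays stood well apart from the others, and the lines differed by 0.94 ± 0.05 (1.91-fold, adjusted p = 1.18e-08). Tmod1 (0.89 ± 0.06) and Tmod3 (1.14 ± 0.04), which encode tropomodulins that cap actin filaments, and Cd59a, a complement inhibitor (1.32 ± 0.08), were higher as well, in addition to Slc14a1. Abcg2, an exporter of porphyrins and drugs, differed by 0.44 ± 0.05. The nucleoside transporter gene Slc29a1 (-0.93 ± 0.04), the adhesion gene Icam4 (-0.54 ± 0.04) and the Rhesus gene Rhd (-0.20 ± 0.04) were lower. Slc29a1 read 10.28, 10.19 and 10.19 in R216Q and 9.24, 9.33 and 9.31 in R216W. The skeleton genes Epb42 (0.09 ± 0.08), Ank1 (0.08 ± 0.03), Sptb (-0.03 ± 0.04) and Dmtn (0.04 ± 0.05) did not pass, so that the list was not higher as a whole.

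Erythroid regulators were more often higher than lower in R216W, with 13 of 30 higher and 5 lower (median 0.10). Nfe2, a partner of small Maf proteins in globin and platelet gene control, read 10.45, 10.41 and 10.29 in R216Q, 10.98, 10.94 and 10.92 in R216W and 11.08, 11.08 and 11.10 in wild type (0.56 ± 0.04, adjusted p = 3.59e-07). Trim10, an erythroid ubiquitin ligase gene, read 9.59, 9.59 and 9.62 in R216Q and 10.21, 10.25 and 10.19 in R216W (0.62 ± 0.03). Ube2o, which remodels the proteome of maturing red cells, differed by 0.80 ± 0.05. Several members of the complex that GATA1 joins on DNA were among the higher genes: Tal1 (0.22 ± 0.04), its partner Tcf3 (0.36 ± 0.04) and the corepressor Cbfa2t3 (0.44 ± 0.04), whereas Lmo2 (0.10 ± 0.04) and Ldb1 (-0.05 ± 0.03) did not pass. The erythropoietin receptor gene Epor (0.25 ± 0.04) and its kinase Jak2 (0.27 ± 0.05) were higher, and Stat5a (-0.11 ± 0.05) and Stat5b (-0.11 ± 0.04) did not pass. E2f4, a cell cycle factor that red cell precursors need, was lower: 10.65, 10.65 and 10.63 in R216Q against 10.15, 10.16 and 10.18 in R216W (-0.48 ± 0.04). The other 4 lower genes, Gfi1b, Bach1, Mafk and Mafg, differed by at most 0.16, and their number was unsteady. The count of lower regulators was 2 without R216Q replicate 1, 1 without R216Q replicate 3, 1 without R216W replicate 1, 2 without R216W replicate 2, 3 without R216W replicate 3, 3 with the replicate number as a block, 2 in a fit of the 6 arrays alone and 9 with array weights. Array weights raised the counts over all genes as well, to 2636 higher and 2761 lower.

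**Figure D3:**
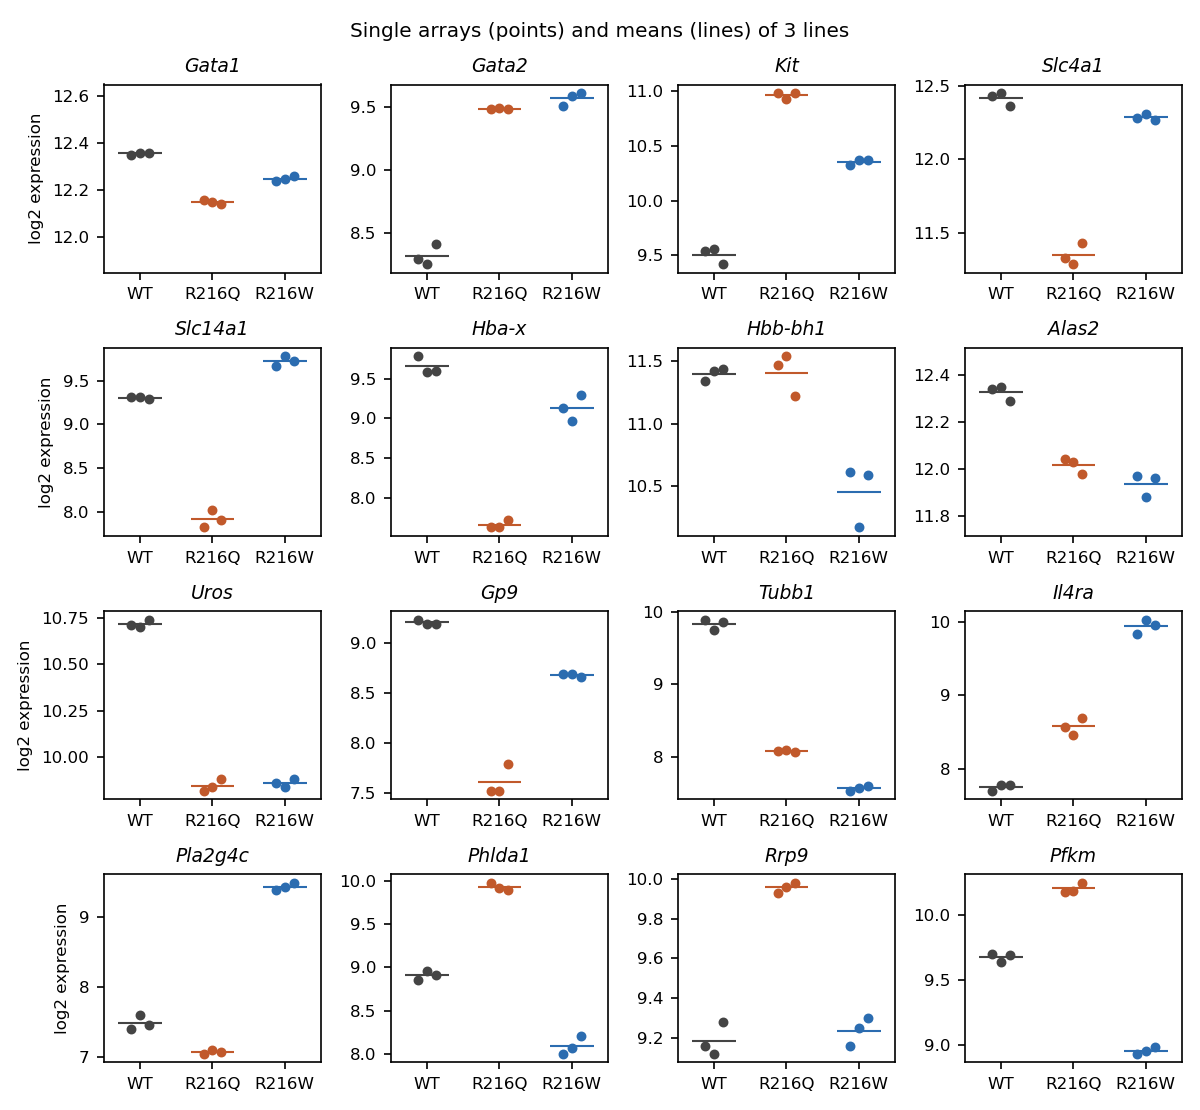
Log2 expression values of 16 genes in the single arrays (points) of wild type GATA1-ER (WT, grey), R216Q (orange) and R216W (blue), with the mean of each line as a bar; each panel has its own vertical axis, which does not start at 0 and spans at least 0.8. R216W lies near wild type for Slc4a1 (mean 12.29 against 12.41), R216Q near wild type for Hbb-bh1 (11.41 against 11.40), and the mutant lines lie together, apart from wild type, for Gata2 and Uros.

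Progenitor genes were divided. Kit, the stem cell factor receptor, read 10.98, 10.93 and 10.98 in R216Q, 10.32, 10.37 and 10.37 in R216W and 9.54, 9.56 and 9.42 in wild type, so that R216W lay between the others (-0.61 ± 0.04, adjusted p = 5.66e-08). Gata2, which precedes Gata1 in erythroid cells, read 9.48, 9.49 and 9.48 in R216Q and 9.51, 9.59 and 9.61 in R216W, against 8.29, 8.25 and 8.41 in wild type. Both lines were thus far above wild type, and the difference between them was 0.09 ± 0.04 (95% interval 0.00 to 0.18, adjusted p = 0.232). The adhesion receptor gene Cd44 (-0.62 ± 0.05) and the transcription factor genes Myc (-0.43 ± 0.05) and Myb (-0.17 ± 0.03) were lower in R216W. Etv6 (0.56 ± 0.08), Runx1 (0.52 ± 0.04), Fli1 (0.37 ± 0.07) and Lyl1 (0.15 ± 0.05), transcription factors of early blood cells, were higher. The call of Lyl1 (limma adjusted p = 0.0426) was lost in 8 of 15 alternatives. Myc read 11.10, 11.13 and 11.08 in R216Q, 10.57, 10.72 and 10.73 in R216W and 10.84, 10.78 and 10.78 in wild type. Of 24 measured progenitor genes, 4 were higher and 4 lower (median -0.02). The homeobox gene Hhex (-0.19 ± 0.10) and Spi1, the myeloid factor PU.1 (0.15 ± 0.10), did not pass.

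Megakaryocyte genes were of interest because R216Q is known from a platelet disorder. Gp9, a subunit of the von Willebrand factor receptor of platelets, read 7.52, 7.52 and 7.79 in R216Q, 8.69, 8.69 and 8.66 in R216W and 9.24, 9.20 and 9.20 in wild type (1.07 ± 0.06, adjusted p = 1.21e-08). The signalling protein gene Plek, for pleckstrin, read 8.44, 8.41 and 8.46 in R216Q and 9.82, 9.72 and 9.79 in R216W (1.34 ± 0.08). Itgb3, a platelet integrin (0.58 ± 0.05), and Nbeal2, which is needed for platelet alpha granules (0.42 ± 0.04), were higher as well. Tubb1, the tubulin of platelets, ran the other way: it read 8.09, 8.10 and 8.07 in R216Q, 7.54, 7.57 and 7.60 in R216W and 9.89, 9.74 and 9.85 in wild type, so that it was lowest in R216W (-0.52 ± 0.09, adjusted p = 4.44e-04). In all, 4 of 16 measured megakaryocyte genes were higher and 2 lower (median 0.00). The 2 lower genes were Tubb1 and Gp5 (-0.24), and the count fell to 1 without any of the R216Q arrays, without R216W replicate 1 and without R216W replicate 2. Itga2b (0.15 ± 0.07), Pf4 (-0.02 ± 0.05) and Vwf (-0.01 ± 0.07), defining genes of the lineage, did not pass. The summed level of the 16 genes was 2010 to 2091 in the R216Q arrays and 2872 to 3021 in the R216W arrays, and 7 of the 16 lay above the median of all genes. That linear sum is weighted toward members with high signals, such as Plek, whereas the list median was 0.00. A part of megakaryocyte-like cells in this difference was not tested.

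Mast cell genes differed little, although their leading member stood far above wild type in both lines. Tph1, the first enzyme of serotonin synthesis, was at 2.58 ± 0.07 in R216Q and 2.65 ± 0.07 in R216W relative to wild type, and at 0.08 ± 0.07 between them (adjusted p = 0.651). Of 13 genes none was higher in R216W and 2 were lower, the histidine decarboxylase gene Hdc (-0.38 ± 0.06) and the tryptase gene Tpsab1 (-0.33 ± 0.06), or 4 with array weights and 1 among genes above the median level. The summed level of the 13 genes was 767 to 821 in R216Q and 724 to 759 in R216W. The zinc exporter gene Slc30a2 was likewise at 3.38 ± 0.08 in R216Q and 3.39 ± 0.08 in R216W relative to wild type and at 0.01 ± 0.08 between them (95% interval -0.17 to 0.18).

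The list of cytokine receptor genes, which also held the signalling suppressors Socs2 and Cish, included strong differences in both directions. Of its 20 members 2 were higher and 7 lower (median -0.10). Il4ra, the interleukin 4 receptor alpha chain, read 8.57, 8.47 and 8.70 in R216Q, 9.84, 10.03 and 9.96 in R216W and 7.71, 7.79 and 7.78 in wild type. Both mutant lines lay above wild type, R216W by more (1.36 ± 0.06, adjusted p = 1.07e-09). Il9r, the interleukin 9 receptor, had the same order, at 9.97 ± 0.04 (SD, n = 3) in R216Q and 10.80 ± 0.03 in R216W (0.82 ± 0.05). Csf2rb2, a beta chain of the interleukin 3 receptor, was lower in R216W: 11.31, 11.24 and 11.22 in R216Q, 10.35, 10.27 and 10.33 in R216W and 11.37, 11.33 and 11.30 in wild type (-0.94 ± 0.04). Its neighbour in sequence and genome, Csf2rb, was lower too (-0.36 ± 0.04), although probe signals of such close copies may not be fully separate. Ifngr2 (-0.42 ± 0.05), Il6st (-0.40 ± 0.08), Il10rb (-0.37 ± 0.05), the signalling suppressor Socs2 (-0.38 ± 0.04) and Cish (-0.12 ± 0.04) were the other lower genes.

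**Figure D4:**
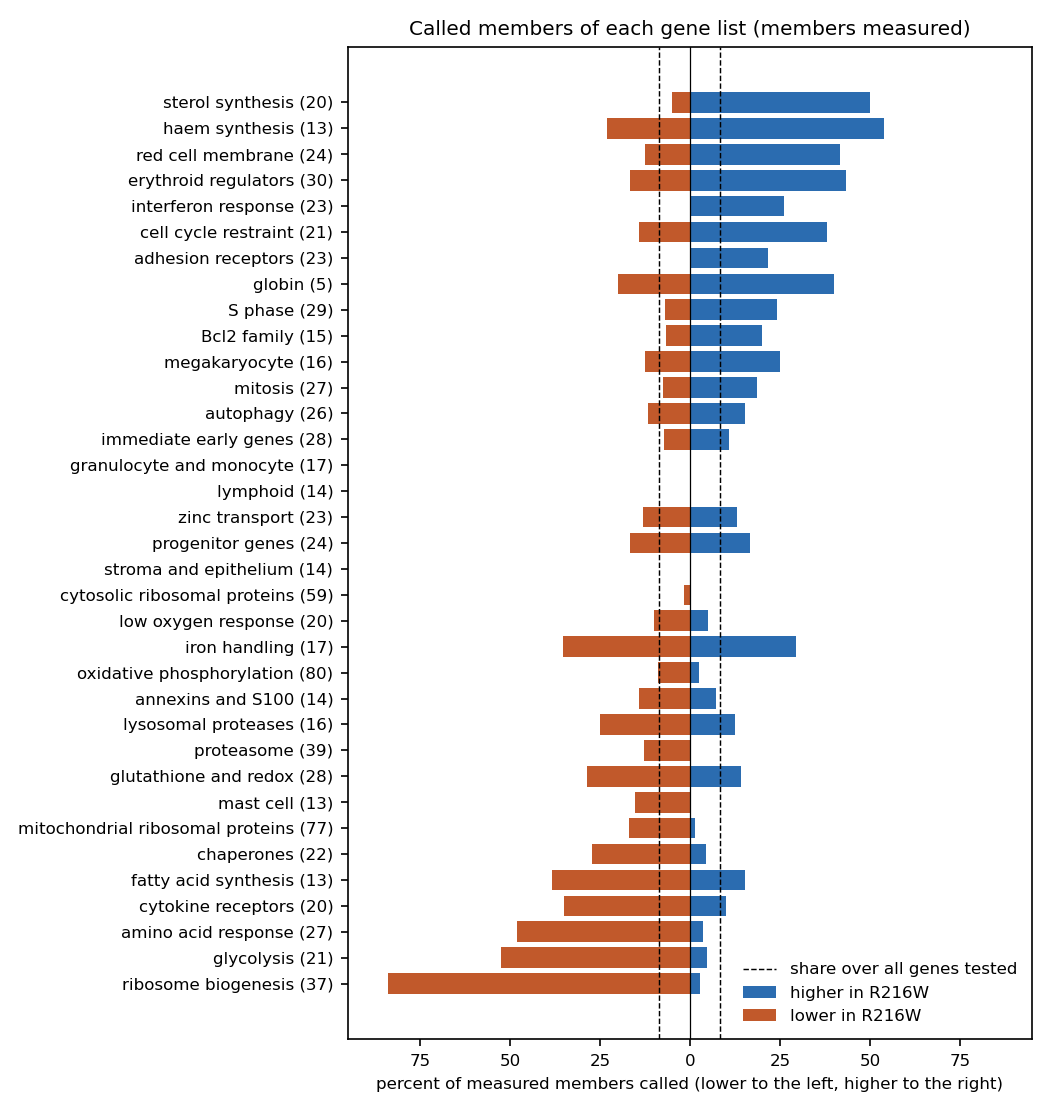
For each of 35 gene lists, with the number of members measured in brackets, bars give the percent of members higher in R216W (blue, to the right) and lower in R216W (orange, to the left) at an adjusted p under 0.05; dashed lines mark the shares over all genes tested, 8.25% and 8.65%. Ribosome biogenesis, glycolysis and the amino acid response reach farthest to the left, and haem synthesis and sterol synthesis farthest to the right.

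Genes of ribosome biogenesis had the most one-sided difference of the lists described. Of 37 measured, 31 were lower in R216W and 1, the RNA polymerase I factor gene Ubtf, was higher (0.19 ± 0.04). The list median was -0.33, and 30 to 33 members were lower under the 15 alternatives in which the lists were counted. Rrp9, a protein of the U3 small nucleolar RNA particle, read 9.93, 9.96 and 9.98 in R216Q, 9.16, 9.25 and 9.30 in R216W and 9.16, 9.12 and 9.28 in wild type. R216W thus overlapped with wild type and R216Q stood above both (-0.72 ± 0.05, adjusted p = 5.33e-08). The polyamine enzymes Srm, for spermidine synthase (-0.52 ± 0.05), and Odc1, for ornithine decarboxylase (-0.47 ± 0.04), were lower, as was Rrn3, which starts RNA polymerase I (-0.52 ± 0.04). Srm read 11.46, 11.52 and 11.34 in R216Q and 10.90, 10.93 and 10.95 in R216W. The polymerase I subunits Polr1a (-0.29 ± 0.03), Polr1b (-0.41 ± 0.04), Polr1c (-0.24 ± 0.04) and Polr1e (-0.37 ± 0.06) were all lower. The abundant nucleolar genes Ncl (-0.05 ± 0.05), Npm1 (-0.12 ± 0.08) and Fbl (-0.09 ± 0.04) did not pass. Relative to wild type, the list median was 0.36 in R216Q and 0.09 in R216W.

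Genes that encode the proteins of the ribosome itself mostly did not share this difference. Of 59 cytosolic ribosomal protein genes 1, Rpl12, was lower in R216W (-0.33 ± 0.05), or 4 with array weights, and none was higher. Mean levels in this cytosolic list reached 13.03, close to the highest value in the 6 arrays, 13.55. Whether such high signals are compressed was not tested. Of 77 mitochondrial ribosomal protein genes 13 were lower and 1 higher (median -0.06), led by Mrpl16 (-0.30 ± 0.05), Mrpl55 (-0.29 ± 0.04) and Mrpl12 (-0.26 ± 0.04). The lower count was 8 without R216Q replicate 2 and 30 with array weights, and the higher gene, Mrps36, was lost without R216Q replicate 1, R216Q replicate 3, R216W replicate 1 or R216W replicate 3 and did not pass in the gene's other probe set (adjusted p = 0.123). Of 80 respiratory chain genes 7 were lower and 2 higher, or 4 lower without R216Q replicate 1 and 4 without R216W replicate 1. Other fits gave more: 11 lower and 4 higher among genes above the median level, 12 and 4 with a trended and robust eBayes, and 17 and 6 with array weights. The exception in size was Cox7a1, a subunit of cytochrome oxidase, which read 10.57, 10.52 and 10.20 in R216Q, 9.68, 9.62 and 9.69 in R216W and 9.70, 9.58 and 9.69 in wild type (-0.77 ± 0.08, adjusted p = 3.51e-06). Of 39 proteasome genes 5 were lower by at most 0.21, or 2 without R216Q replicate 1, 2 without R216Q replicate 2, 3 without R216W replicate 1 and 3 without R216W replicate 2, and 8 with array weights or among genes above the median level. Chaperone genes were lower at 6 of 22 and higher at 1, Dnajb1. They included Cct8 of the chaperonin ring (-0.32 ± 0.04), Hsp90b1 (-0.30 ± 0.04) and Hspa5 (-0.28 ± 0.04) of the endoplasmic reticulum, and Hspa9 of mitochondria (-0.30 ± 0.04).

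Glycolysis genes were lower in R216W than in R216Q at 11 of 21 members, with 1 higher (median -0.16). Pfkm, the muscle form of phosphofructokinase, read 10.18, 10.19 and 10.25 in R216Q, 8.93, 8.95 and 8.98 in R216W and 9.70, 9.64 and 9.69 in wild type, with no overlap among the lines. At 2.38-fold higher in R216Q it had the largest difference of the list (adjusted p = 2.78e-11). Pfkp, the platelet form, was lower by -0.64 ± 0.06, and Pfkl, the liver form, was at 0.00 ± 0.06. Hk2, which commits glucose to the pathway, read 7.90, 7.56 and 7.90 in R216Q and 6.96, 7.14 and 6.94 in R216W (-0.77 ± 0.09). The lactate carriers Slc16a1 (-0.74 ± 0.05) and Slc16a3 (-0.65 ± 0.08) and the glucose carriers Slc2a1 (-0.35 ± 0.07) and Slc2a3 (-0.53 ± 0.12) were lower as well. Pdk1, a kinase that keeps pyruvate from being oxidised in mitochondria, was the gene higher in R216W: it read 9.56, 9.43 and 9.72 in R216Q and 10.20, 10.18 and 10.12 in R216W (0.59 ± 0.08). Relative to wild type the list median was 0.53 in R216Q and 0.20 in R216W. Of 20 other targets of the low oxygen response 2 were lower and 1 higher, and 0 higher without any of the 6 arrays except R216Q replicate 3. With array weights 5 were lower and 2 higher. Vegfa was at 0.03 ± 0.05 and Bnip3 at -0.30 ± 0.12 (adjusted p = 0.127), whereas the oxidoreductase gene Ero1a was lower (-0.54 ± 0.05).

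Genes of the amino acid response were lower in R216W at 13 of 27 members and higher at 1 (median -0.13). Slc7a5, the leucine transporter, read 11.93, 11.90 and 11.94 in R216Q, 11.04, 11.07 and 11.02 in R216W and 11.52, 11.52 and 11.54 in wild type (-0.88 ± 0.03, adjusted p = 1.75e-10). The lines did not overlap, and wild type lay between the mutants. Its partner chain Slc3a2 differed by -0.26 ± 0.03 and the arginine transporter gene Slc7a1 by -0.56 ± 0.04. Atf4, the transcription factor of the response, was lower by -0.37 ± 0.04, and so were its target Trib3 (-0.64 ± 0.05) and Ddit3, the CHOP factor (-0.80 ± 0.05). Ddit3 read 9.48, 9.49 and 9.38 in R216Q and 8.58, 8.71 and 8.64 in R216W. Other known targets did not pass, among them Asns (-0.08 ± 0.03), Chac1 (-0.09 ± 0.10) and Atf3 (-0.12 ± 0.07). Slc6a9, the glycine transporter of red cell precursors, was the higher gene, at 10.51, 10.48 and 10.57 in R216Q and 10.93, 10.99 and 10.96 in R216W (0.44 ± 0.04).

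Sterol synthesis genes were higher in R216W at 10 of 20 members and lower at 1 (median 0.12). Hmgcs1, which makes the substrate of the pathway's rate-limiting enzyme, read 10.36, 10.38 and 10.41 in R216Q, 10.99, 11.04 and 10.96 in R216W and 10.33, 10.45 and 10.27 in wild type (0.61 ± 0.05, adjusted p = 7.48e-07). R216Q thus lay close to wild type and R216W above both. Idi1 (0.56 ± 0.06), the squalene synthase gene Fdft1 (0.38 ± 0.05) and Cyp51 (0.34 ± 0.06) were higher too, and Ebp was lower (-0.18 ± 0.04). The regulators Srebf2 (0.05 ± 0.04) and Insig1 (0.04 ± 0.06) did not pass. Fatty acid synthesis genes did not go with them, with 2 of 13 higher and 5 lower (median -0.07). The malic enzyme gene Me1 was lower by the most (-0.74 ± 0.08), followed by Elovl1 (-0.38 ± 0.03) and Acaca (-0.24 ± 0.04), whereas Acsl4 (0.49 ± 0.04) and Elovl5 (0.32 ± 0.05) were higher.

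**Figure D5:**
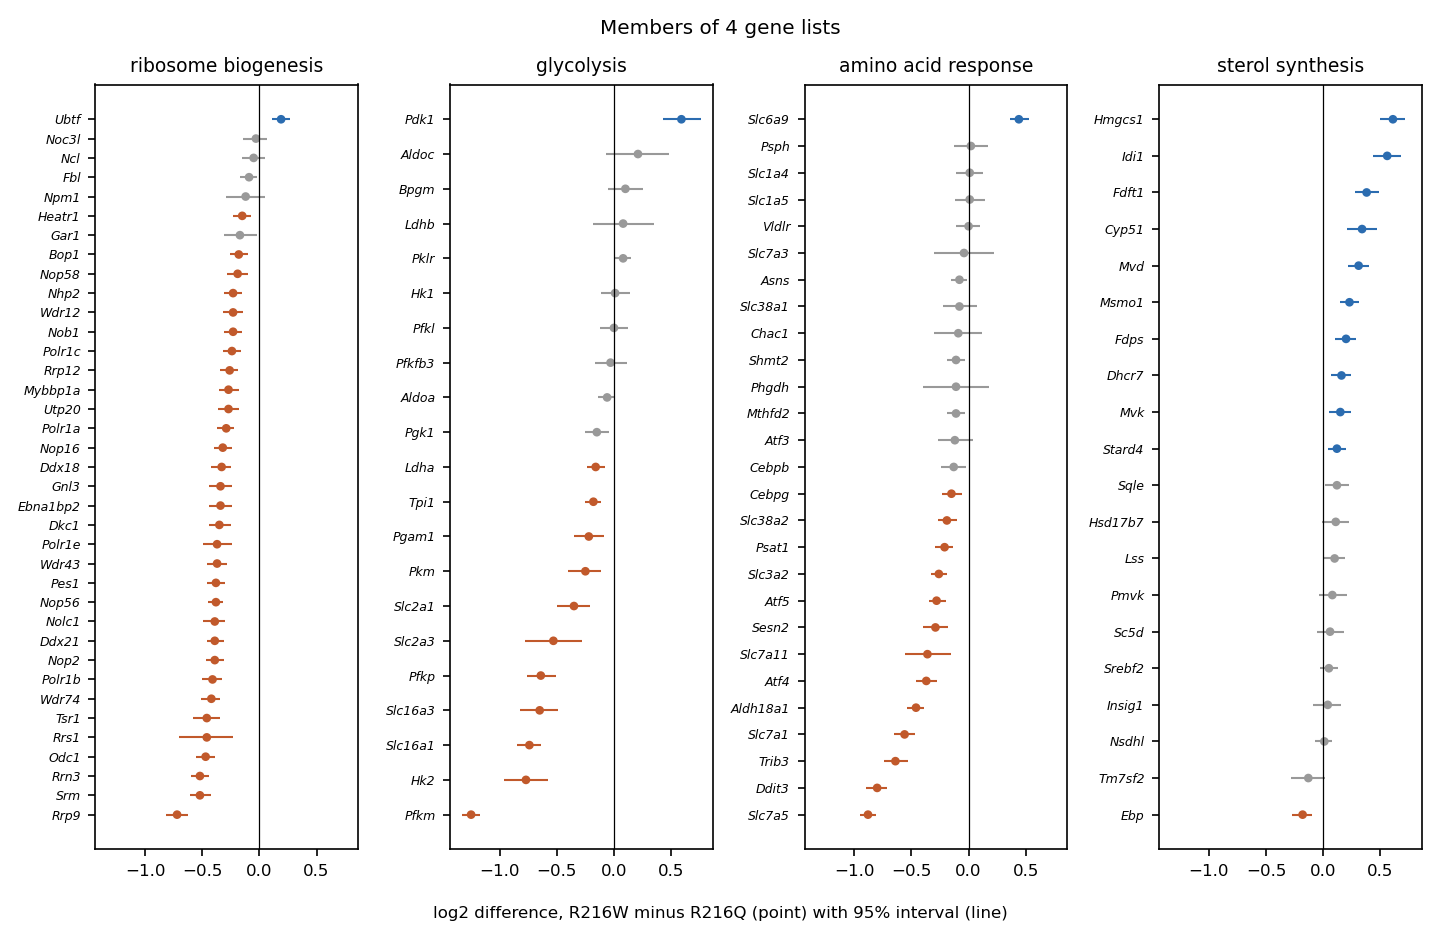
Log2 difference, R216W minus R216Q, of every measured member of 4 gene lists (point) with its 95% interval (line); blue members were higher and orange members lower in R216W at an adjusted p under 0.05, and grey members did not pass. Nearly all ribosome biogenesis genes lie left of 0, while glycolysis and the amino acid response have long left tails ending at Pfkm (-1.25) and Slc7a5 (-0.88), and the sterol genes lie mostly to the right, up to Hmgcs1 (0.61).

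Genes of the cell cycle differed by small amounts. Of 29 S phase genes 7 were higher and 2 lower, with Tk1, the thymidine kinase, as the largest difference (0.58 ± 0.05; 9.77, 9.67 and 9.74 in R216Q and 10.21, 10.36 and 10.34 in R216W). The S phase count of higher genes was 4 without R216Q replicate 1, 4 without R216W replicate 2 and 11 with array weights, and that of lower genes was 0 without R216Q replicate 1, R216Q replicate 2 or R216W replicate 1 and 1 without R216Q replicate 3 or R216W replicate 3. Of 27 mitosis genes 5 were higher and 2 lower, or 3 higher without R216Q replicate 1 and 3 without R216W replicate 1. The count of higher mitosis genes rose to 8 with cyclic loess normalization, 10 with array weights and 11 with a trended and robust eBayes. Tpx2, a spindle assembly factor, was among the lower (-0.27 ± 0.04), and Birc5, the survivin gene, among the higher (0.26 ± 0.03). Genes that restrain the cycle were higher in R216W at 8 of 21 and lower at 3 (median 0.05). Gadd45g, a growth arrest gene, read 8.51, 8.46 and 8.31 in R216Q, 9.23, 9.24 and 9.37 in R216W and 9.34, 9.19 and 9.30 in wild type (0.85 ± 0.07, adjusted p = 3.49e-07). Gadd45a (0.61 ± 0.06), the cyclin G gene Ccng2 (0.47 ± 0.09), the pocket protein genes Rbl2 (0.36 ± 0.06) and Rbl1 (0.26 ± 0.04) and the CDK inhibitor gene Cdkn2c (0.30 ± 0.05) were higher, while Cdkn1b was at -0.06 ± 0.04 and did not pass.

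Cell death, autophagy and lysosome lists held a few larger single differences. Bid, which carries death receptor signals to mitochondria, was higher in R216W (0.63 ± 0.04; 8.52, 8.52 and 8.46 in R216Q and 9.13, 9.15 and 9.13 in R216W). Bcl2l1, the survival gene of maturing red cells, was higher by 0.29 ± 0.03, and 3 of 15 Bcl2 family genes were higher and 1 lower in all. Of 26 autophagy genes 4 were higher and 3 lower by at most 0.31, and the lower count was 1 without R216W replicate 1 and 1 without R216W replicate 2, and 5 with array weights. The higher count was 7 with array weights, with a trended and robust eBayes and among genes above the median level. Bnip3l, the mitophagy receptor of reticulocytes, was at 0.05 ± 0.03 (adjusted p = 0.458). Among 16 lysosomal protease genes 2 were higher and 4 lower. Ctsl, for cathepsin L, read 9.88, 9.88 and 9.86 in R216Q, 8.74, 8.83 and 8.73 in R216W and 8.77, 8.75 and 8.78 in wild type (-1.11 ± 0.04, adjusted p = 1.05e-10), with R216W and wild type overlapping. Lgmn, for legumain, was lower by -0.66 ± 0.07, whereas Ctsc, for cathepsin C, was higher (1.25 ± 0.13).

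Redox genes were divided, with 4 of 28 higher and 8 lower in R216W and a median of 0.00. Glrx, a glutaredoxin gene, was the largest (9.38, 9.37 and 9.17 in R216Q, 10.41, 10.28 and 10.44 in R216W, difference 1.07 ± 0.06), and Gpx4, which repairs lipid peroxides, was higher by 0.37 ± 0.05. Gsta4 (-0.36 ± 0.07), Gsto1 (-0.30 ± 0.06) and Nqo1 (-0.29 ± 0.05) were lower. Of 28 immediate early genes 3 were higher and 2 lower, or 1 lower without any array except R216W replicate 2 and 5 lower with array weights. Egr1, a growth factor response gene, stood out among the lower: it read 8.69, 8.68 and 8.70 in R216Q, 7.57, 7.67 and 7.72 in R216W and 7.29, 7.20 and 7.44 in wild type (-1.03 ± 0.06, adjusted p = 2.13e-08). Spry1, an inhibitor of receptor kinase signals, was higher (0.69 ± 0.05), whereas Fos (-0.16 ± 0.10), Jun (-0.17 ± 0.07) and Dusp6 (-0.08 ± 0.08) did not pass.

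Interferon-stimulated genes were higher at 6 of 23 and lower at none (median -0.01). They were Ifi35 (0.71 ± 0.07), Ddx58, the RNA sensor RIG-I (0.55 ± 0.06), Irf9 (0.47 ± 0.05), Ifih1 (0.31 ± 0.07), Tap1 (0.22 ± 0.04) and Stat2 (0.21 ± 0.05). Ddx58 read 6.03, 6.09 and 6.15 in R216Q and 6.69, 6.70 and 6.54 in R216W, without overlap. Classical members such as Ifit1 (0.00 ± 0.07), Mx1 (-0.09 ± 0.05) and Irf7 (-0.02 ± 0.08) did not pass. Adhesion receptor genes were higher at 5 of 23 and lower at none, with the integrin genes Itgav (0.51 ± 0.05), Itgb2 (0.43 ± 0.05) and Itgb1 (0.21 ± 0.04) and Icam1 (0.46 ± 0.05) among them. Of 14 annexin and S100 genes 2 were lower, Anxa2 (-0.68 ± 0.15) and Anxa5 (-0.33 ± 0.04), and 1, Anxa7, was higher, or 0 without R216Q replicate 3 or R216W replicate 1. In the zinc list 3 of 23 were higher, or 1 without R216Q replicate 1, R216Q replicate 2 or R216W replicate 2, and 3 were lower (5 and 5 with array weights), including the metallothionein genes Mt2 (-0.34 ± 0.03) and Mt1 (-0.17 ± 0.04).

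The D218 lines gave the closest comparison on other arrays, since D218G and D218Y also differ in a single amino acid at a shared position of the same finger. Between these lines 6583 of 19933 genes passed (33.0%), 301 of them by 2-fold or more, against 3369 and 76 between R216W and R216Q. The difference between R216W and R216Q was itself unlike that between D218Y and D218G for 5696 genes (28.6%) by a test of the interaction in the same fit. Nothing in the design matches R216W to D218Y, so the order of the D218 pair was a choice. In the other order the D218 differences change sign, and the interaction was not tested that way. Opposite signs of the R216 and D218 differences therefore carry no meaning by themselves. For Slc4a1 the R216 difference was 0.94 and the D218 difference, D218Y minus D218G, was -4.49 (interaction 5.43 ± 0.07, adjusted p = 4.13e-15). Kit was at -0.61 and 1.47 (interaction adjusted p = 2.34e-12), and Gata2 at 0.09 and 3.14 (1.26e-13). Ribosome biogenesis genes had a median of -0.33 between the R216 lines and 0.52 between the D218 lines, and 36 of 37 passed the interaction test. All 13 haem synthesis genes passed it as well, with medians of 0.16 and -0.82. In glycolysis Pfkm differed between R216W and R216Q but was at -0.02 between D218Y and D218G (interaction adjusted p = 1.89e-10).

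Some differences were large between the R216 lines and small between the D218 lines. Pla2g4c was at 2.37 against -0.32 (interaction adjusted p = 1.88e-11), Nek6 at 2.02 against 0.21 (3.87e-09), Aqp3 at 1.86 against 0.15 (6e-11) and Il4ra at 1.36 against -0.02 (1.03e-08). Phlda1 was at -1.84 against -0.14 (1.63e-10). Others did not pass the interaction test, among them Pdk1 (0.59 and 0.69, adjusted p = 0.607), Bid (0.63 and 0.75, 0.182), Hmgcs1 (0.61 and 0.78, 0.112) and Etv6 (0.56 and 0.63, 0.752), for which a p above the threshold does not show that the differences are alike. Whether a gene passes this test can depend on the order chosen for the D218 pair, and the other order was not tested.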

How the data were processed

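Each of 15 arrays gave 1 log2 expression value per probe set. The authors made these log2 values with RMA, a method of background correction, quantile normalization and probe summary, in Partek 6.6 (per the submitters' processing notes), and the deposited values were used unchanged. RMA settings and version were not stated there. RMA draws array distributions together and tends to compress differences of dim genes. Of 28350 probe sets 21780 had 1 symbol in the platform annotation, 1618 several and 4952 none listed. Of the probe sets, 21689 matched the RefSeq gene table by gene identifier, which changed 0 symbols. A gene with several probe sets (996 genes) took the one with the highest mean over all arrays.

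The linear model (limma 3.58.1, R 4.3.3) fitted a mean for each of the 5 lines to the 15 arrays with lmFit, followed by eBayes without trend, two-sided tests, Benjamini-Hochberg adjustment over 19933 genes, calls at an adjusted p under 0.05. Arrays carry no counts, so their number limits the precision. Simulated data held independent normal noise, with 50 genes made to differ at each size. Of these, 0% differing by 0.1 (log2), 54% by 0.25, 96% by 0.5 and 100% by 1 were called in R216W against R216Q. False calls numbered 5 over 19933 genes. In the real arrays 3369 genes passed, which makes the adjusted threshold less strict, and the smallest difference called was 0.09. The simulated shares are therefore not recovery rates of this comparison.

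Named genes were the 15 largest differences in each direction among called genes whose arrays do not overlap (placeholder symbols, olfactory and vomeronasal receptors and small RNAs passed over), up to 4 called members per list and direction, and 20 preset genes of erythroid cells, progenitors and megakaryocytes. Other list members are named for context and were chosen after their values were seen. The 35 lists, the members and the tests were chosen with earlier results of these data known. Lists are described by counts and medians. Replicate numbers did not pair the arrays. Alternatives were other normalization, a level filter, other variance models, array weights, the replicate block, other probe set rules and leaving out single arrays. Promoters and miRNAs came from RefSeq tables (GRCm38.p6).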

Additional observations from a re-analysis of the deposited data

Results flagged for a closer look

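For 37 of the 211 named genes the mutant lines lay on opposite sides of wild type: all R216Q arrays on one side of all wild type arrays, all R216W arrays on the other, and an adjusted p under 0.05 (limma) in each of the 3 comparisons of these lines. Over all 19933 genes 595 (2.98%) had the arrays in such an order and 248 (1.24%) also passed in the 3 comparisons. Most named genes were chosen for a called difference between R216W and R216Q, so their larger share (17.5%) is a description and supports nothing. Among the largest differences, R216W lay above and R216Q below wild type for Pla2g4c (2.37 between the lines), Rgs18 (2.33), Rragd (2.05), Nek6 (2.02), Cpne7 (1.90), Aqp3 (1.86), Slc14a1 (1.81), Airn (1.61), Aqp8 (1.59) and Slc34a3 (1.56). The reverse order held for Phlda1 (-1.84), Foxh1 (-1.79), Grk5 (-1.62), Lonrf2 (-1.47), Ampd2 (-1.36), Mboat2 (-1.30), Pfkm (-1.25) and Tcn2 (-1.23). Nek6, for example, was at -1.05 ± 0.07 in R216Q and 0.97 ± 0.07 in R216W relative to wild type, and Phlda1 at 1.02 ± 0.05 and -0.82 ± 0.05.

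In the gene lists, R216W lay above and R216Q below wild type for Aco1 (0.75), the transcription factor Runx1 (0.52), Gadd45a (0.61), Bid (0.63), the sterol genes Idi1 (0.56) and Fdft1 (0.38), Glrx (1.07), Spry1 (0.69), Ifi35 (0.71), Itgav (0.51) and Icam1 (0.46). R216Q lay above and R216W below wild type for Tfr2 (-0.71), E2f4 (-0.48), Rrn3 (-0.52), Odc1 (-0.47), Hsp90b1 (-0.30), the lactate carrier gene Slc16a1 (-0.74), Slc7a5 (-0.88) and Trib3 (-0.64). These comparisons share the wild type and mutant arrays. Groups of 3 arrays were not tested for single outlying arrays.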

How the results depend on the processing

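Of 211 named genes, the 199 that passed kept their direction under every alternative run, and 171 of them passed in each alternative that tested them. Klf1, Slc30a2 and Tph1, which had not passed, changed sign in some, and 4 genes that had not passed did so in at least 1 alternative. With limma array weights 5397 genes passed, 2636 higher and 2761 lower in R216W; the weight estimate stopped before its tolerance. The other alternatives gave from 2385 genes (adjusted p under 0.01) to 3863 (genes above the median level alone), and a fit without D218G replicate 3, an array that stood apart, chosen after seeing the data, gave 3784. Leaving out each of the 6 arrays in turn gave from 2781 to 2955 genes, 1322 to 1519 higher and 1293 to 1545 lower, and 71 to 77 at 2-fold or more. Replicate numbers did not pair the arrays: deviations of same-numbered arrays correlated at 0.02, -0.10 and -0.10, and 1 of 3 arrays of each line correlated best with its own number. The fit with the replicate block gave 3125 genes, 1512 higher and 1613 lower. Gata1 lost its call with the replicate block (adjusted p = 0.0599), as did 8 other named genes, Mafg (adjusted p = 0.0534) among them. Precision rests on 3 arrays per line, and signals of dim genes are compressed. The cause of each change was not tested.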

Other observations

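The following genes stood outside the naming rule and were chosen after their values were seen. The erythroid microRNA genes Mir144 and Mir451a, which lie side by side on chromosome 11 and are a known GATA1 target, were both lower in R216W. Mir144 read 7.64, 7.91 and 6.96 in R216Q, 6.43, 6.27 and 6.45 in R216W and 8.44, 8.56 and 8.23 in wild type (-1.12 ± 0.19, adjusted p = 6.61e-04). Mir451a read 7.94, 7.87 and 7.42 in R216Q, 7.04, 6.94 and 7.04 in R216W and 8.34, 8.28 and 8.02 in wild type (-0.74 ± 0.12, adjusted p = 5.52e-04). In both, the R216 lines did not overlap with each other or with wild type, which lay above them, and R216Q replicate 3 was the lowest array of its line. The probe sets read the gene and do not tell mature arms apart. The mature sequences (RefSeq, GRCm38.p6, 5′ to 3′, plus strand, seed bases 2 to 8 in capitals) are shown because the seeds of these neighbours differ. They lie at chr11:78073010-78073032 (miR-144-5p), chr11:78073047-78073066 (miR-144-3p) and chr11:78073186-78073207 (miR-451a).
mmu-miR-144-5p: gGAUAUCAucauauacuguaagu
mmu-miR-144-3p: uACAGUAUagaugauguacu
mmu-miR-451a: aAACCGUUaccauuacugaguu

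Further genes outside the naming rule differed between the lines. Car1, a carbonic anhydrase of red cells, read 11.79, 11.72 and 11.75 in R216Q, 10.56, 10.55 and 10.64 in R216W and 11.18, 11.19 and 11.15 in wild type, so that wild type lay between the lines (-1.17 ± 0.04). The sphingosine phosphate exporter gene Mfsd2b read 9.74, 9.67 and 9.84 in R216Q and 10.81, 10.80 and 10.75 in R216W (1.04 ± 0.04). Il5ra, the interleukin 5 receptor alpha chain, was higher in R216W (1.31 ± 0.06). It was dim in both lines, at 4.88, 4.90 and 4.79 in R216Q and 6.13, 6.12 and 6.26 in R216W, below the median level of all genes, 6.48. Treml2 (1.22 ± 0.05) and the immunity-related GTPase gene Irgm1 (1.23 ± 0.11) were higher as well, the latter with R216Q replicate 3 at 8.13, below the rest of its line. Etv5, an Ets factor of growth factor signalling, was lower in R216W (-0.95 ± 0.07), and so was the Piwi gene Piwil4 (-1.21 ± 0.06).

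The homeobox genes Hoxc6 and Hoxc8 were both higher in R216W. Hoxc6 read 7.32, 7.42 and 7.33 in R216Q, 8.33, 8.16 and 8.39 in R216W and 7.60, 7.68 and 7.53 in wild type (0.94 ± 0.08), and Hoxc8 7.54, 7.62 and 7.61, 8.36, 8.44 and 8.52 and 7.72, 7.64 and 7.77 (0.85 ± 0.05). In both, every R216W array lay above and every R216Q array below the wild type arrays; against wild type R216Q passed for Hoxc6 (-0.24 ± 0.08, adjusted p = 0.0415) but not for Hoxc8 (-0.12 ± 0.05, adjusted p = 0.166). The nuclear receptor gene Ppard was lower (-0.95 ± 0.05) and Cpt1a, which admits fatty acids to mitochondria, was higher in R216W (0.85 ± 0.04).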
